A study of Mus musculus with 2 samples.

Results

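Alternative first exon pairs are genes whose 2 most abundant annotated transcripts begin with different first exons and join the same last exon. They were taken from the transcript tables of sorted CD69+ DP thymocytes. DP (double-positive) thymocytes are immature T cells that carry both CD4 and CD8, and CD69 appears on them after signalling through the T cell receptor. There were 2 libraries, from C57BL/6 mice aged 6 weeks. The library labelled wild-type came from NSRP1f/f mice without Cre, and the library labelled KO came from NSRP1f/f CD4Cre mice, so both carried floxed Nsrp1 alleles and Cre was driven by the CD4 promoter, which is switched on when thymocytes become DP. The targeted product, NSrp70, is a protein of nuclear speckles with a role in splice site choice, and the comparison asks whether the balance between transcripts with different first exons differed when it was targeted. How many mice gave each library is not stated in the labels.

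A pair was kept when its gene lay at 1 locus, had a summed TPM of 10 or more in each library (TPM is a transcript abundance corrected for length and scaled to the same total in each library) and had at least 2 annotated transcripts. The 2 transcripts with the highest summed TPM both needed several exons, the same 5′ boundary of the last exon, and different 3′ boundaries of the first exon. Of 24532 genes, 8379 reached the level at 1 locus, 3012 of these had 2 or more transcripts, and 3000 gave a pair of spliced transcripts. Of the 3000 pairs, 980 were alternative first exon pairs, 432 differed in the last exon instead, 61 in both and 1527 in neither boundary. The transcripts were thus chosen by their measured TPM summed over the libraries, and the difference between the libraries was not used. Just outside the level were Eef2k (gene TPM 11.7 under the wild-type label and 9.87 under the KO label) and Tnfaip1 (10.3 and 9.99), and just inside were Lrrc8d (14.0 and 10.1) and Tbc1d7 (10.1 and 11.7).

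The first exon of an RNA is set by the promoter at which RNA polymerase II starts, or, where the start is shared, by the splice donor that ends the exon. Genes with several promoters can give each its own tissue or stage of use, and the alternative first exon can change the untranslated leader or move the start codon. In thymocytes the textbook case is Lck, the Src family kinase of T cell receptor signalling, which has a distal promoter far upstream and a proximal one next to its coding exons. In what follows the upstream transcript is the one whose first exon ends further 5′, and its share is its percent of the summed TPM of the pair.

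The sequences below are the 100 bases before the annotated start of each transcript for 6 pairs, from the RefSeq promoter table (GRCm38.p6), 5′ to 3′ on the strand of the gene. Lck and Ikzf1 are shown as T lineage genes with both transcripts of the pair listed at high TPM. Smad5 and Rpl22 are shown because their TPM shares differed widely while the depth shares of their first exons differed by under 1 point. Ubb and Dnajb1 are shown because the counting intervals of their first exon depth shares did not overlap. Capitals mark the motifs TATAAA (known as the TATA box), GGGCGG (GC box), CCGGAA (ETS core), TGTGGT (RUNX core), CCAAT (bound by NF-Y), CACGTG (E-box), and both GAANNTTC and TTCNNGAA (parts of the heat shock element), on either strand.
Lck upstream (chr4:129573642-129573741, minus strand): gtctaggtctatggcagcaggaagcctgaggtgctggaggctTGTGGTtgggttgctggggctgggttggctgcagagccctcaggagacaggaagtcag
Lck downstream (chr4:129558373-129558472, minus strand): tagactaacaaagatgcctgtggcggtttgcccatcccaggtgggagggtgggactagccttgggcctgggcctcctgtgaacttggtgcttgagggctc
Ikzf1 upstream (chr11:11685825-11685924, plus strand): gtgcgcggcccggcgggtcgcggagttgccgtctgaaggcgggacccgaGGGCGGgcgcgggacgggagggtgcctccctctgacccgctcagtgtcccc
Ikzf1 downstream (chr11:11690077-11690176, plus strand): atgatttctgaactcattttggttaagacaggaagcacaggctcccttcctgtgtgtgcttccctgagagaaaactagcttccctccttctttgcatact
Smad5 upstream (chr13:56702910-56703009, plus strand): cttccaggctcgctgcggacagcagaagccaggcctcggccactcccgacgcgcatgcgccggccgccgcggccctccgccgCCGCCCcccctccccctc
Smad5 downstream (chr13:56703568-56703667, plus strand): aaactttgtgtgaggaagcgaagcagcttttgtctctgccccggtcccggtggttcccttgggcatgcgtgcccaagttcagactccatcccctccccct
Rpl22 upstream (chr4:152324336-152324435, plus strand): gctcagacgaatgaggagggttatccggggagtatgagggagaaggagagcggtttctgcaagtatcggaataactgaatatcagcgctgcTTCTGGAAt
Rpl22 downstream (chr4:152325626-152325725, plus strand): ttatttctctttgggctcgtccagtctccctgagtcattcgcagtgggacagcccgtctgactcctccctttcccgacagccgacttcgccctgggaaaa
Ubb upstream (chr11:62551071-62551170, plus strand): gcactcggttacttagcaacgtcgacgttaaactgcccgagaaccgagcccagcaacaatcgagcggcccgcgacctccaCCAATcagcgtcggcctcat
Ubb downstream (chr11:62551631-62551730, plus strand): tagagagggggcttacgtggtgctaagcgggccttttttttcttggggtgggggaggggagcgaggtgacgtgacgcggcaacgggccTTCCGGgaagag
Dnajb1 upstream (chr8:83608075-83608174, plus strand): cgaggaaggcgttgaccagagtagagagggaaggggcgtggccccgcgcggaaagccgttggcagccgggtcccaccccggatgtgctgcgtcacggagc
Dnajb1 downstream (chr8:83608448-83608547, plus strand): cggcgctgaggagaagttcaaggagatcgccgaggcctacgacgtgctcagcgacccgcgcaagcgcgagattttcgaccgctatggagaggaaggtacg
Both Lck windows held few CpG dinucleotides, 0 upstream and 1 downstream, and the upstream one held a RUNX core. The Ikzf1 windows were unlike, with 14 CpG and a GC box upstream and 0 CpG and none of the motifs downstream. Smad5 and Ubb held 14 and 12 CpG upstream and 4 and 8 downstream in these 100 bases, but in the 300-base windows of the table, which reach past the start, their promoters were near-equal, with 31 and 31 in Smad5 and 33 and 32 in Ubb. The downstream Dnajb1 window lies largely within the first exon of the upstream transcript. No heat shock element part was found in the Ubb or Dnajb1 windows, and the one match, TTCNNGAA, was in the upstream Rpl22 window. A match is a run of letters, not a site.

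The 980 pairs held 3 structures. In 664 the first exons were separate, in 102 they overlapped without a common start, and in 214 they began at the same base and ended at different donors. The starts of separate pairs lay 39 to 708577 bases apart, with quartiles of 472 and 14183. After the first exon 532 pairs were identical, and 930 ended at the same 3′ base. Of 689 pairs whose start codons could be read for both transcripts by matching to GENCODE, 402 used the same start codon and 287 different ones. In 298 the common start codon lay outside both first exons, so the choice of first exon altered the leader and left the start codon in place. Only 34 pairs were on chromosome X, and a first exon of 74 pairs overlapped another gene, whose reads could not be told apart.

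The 2 promoters of a pair differed in base composition. Among 347 separate pairs with starts at least 300 bases apart and both windows in the RefSeq table, the median G+C content of the 300-base windows was 61.3% upstream and 57.3% downstream, against 52.7% over all 32851 windows. The median CpG count was 20 and 13, against 7. GC boxes were found in 64.8% of upstream and 50.4% of downstream windows, against 35.7% of all, and ETS cores in 24.2% and 18.7%, against 14.9%. RUNX cores were found in 8.65% and 13.5%, against 16.8%, and TATA boxes in 7.49% and 8.65%, against 13.6%. CCAAT was found in 37.2% and 29.4%, against 37.4%, the E-box in 11.8% and 8.93%, against 7.15%, GAANNTTC in 7.20% and 4.90%, against 7.86%, and TTCNNGAA in 8.65% and 8.07%, against 8.52%. The richer window tended to go with the more abundant transcript. Where the upstream window had more CpG (201 pairs) the median upstream share was 78.4% and 80.3%, the first value being here and below that of the library labelled wild-type and the second that of the library labelled KO, and where the downstream one had more (139 pairs) it was 35.4% and 35.2%. These are descriptions over genes, with no test.

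The cells carried their labelled markers, and the library labelled KO was the deeper one. Annotated exons were covered by 4199 and 5076 megabases of aligned reads. The 8 DP thymocyte markers summed to 5146 and 5405 TPM, with Cd4 at 725 and 663 and Cd69 at 430 and 522. The 6 B cell markers summed to 54.0 and 62.5 TPM, the 8 myeloid markers to 336 and 336, the 6 erythroid markers to 1.36 and 3.08 (Hba-a1 and Hbb-bt listed at 0 in both), the 6 thymic epithelial markers to 14.5 and 15.4 (Foxn1, Krt5 and Krt8 listed at 0 in both) and the 6 stromal markers to 120 and 104 (Pecam1 alone 120 and 104, with Col1a2, Col3a1 and Pdgfra listed at 0 in both). The part of these cells in the results was not tested. Nsrp1 itself was at 29.7 and 29.6 TPM, so its level did not separate the libraries, and directions below refer to their labels. With 1 library per genotype no difference has a replicate check and no test was made. In these bulk libraries fewer cells of a type and less RNA per cell cannot be told apart.

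By TPM share, small differences were about as frequent in these pairs as in pairs of other kinds. The upstream share differed by under 5 percentage points in 532 of the 980 pairs (54.3%), against 54.5% of all 3000 pairs and 54.7% of the 2020 other pairs. The median difference, KO minus wild-type, was 0.09 points. The upstream transcript was the more abundant one in 563 pairs in the library labelled wild-type and in 565 in the library labelled KO, with median shares of 59.0% and 61.7%. It exceeded 90% in both libraries in 198 pairs and stayed under 10% in both in 145. The genes' total levels had a median log2 fold change of -0.06.

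A difference of 25 points or more, a size rule without a test, was reached by 68 pairs (6.94%), against 5.43% of all 3000 pairs, which include them, and 4.7% of the 2020 other pairs. The upstream share was higher in the library labelled KO in 47 pairs (4.80% of 980) and lower in 21 (2.14%). The 1041 pairs whose first exons differ had 4.8% and 2.21%, but 980 of them are the same pairs, so this is no separate comparison. Differences of 10 points or more were found in 25.6% of the pairs, 144 higher and 107 lower, against 23.8% of all pairs. The more abundant transcript was not the same in the 2 libraries in 84 pairs (8.57%), against 9.83% of all pairs. The shares past 25 points were 3.24% for alternative last exon pairs and 4.98% for pairs with the same first and last boundaries. For pairs that differ in both the first and the last exon it was 8.20%, or 5 of 61. An upstream transcript is not defined for most of the other pairs, so the split of 47 and 21 has no outside background and no direction is read from it.

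**Figure D1:**
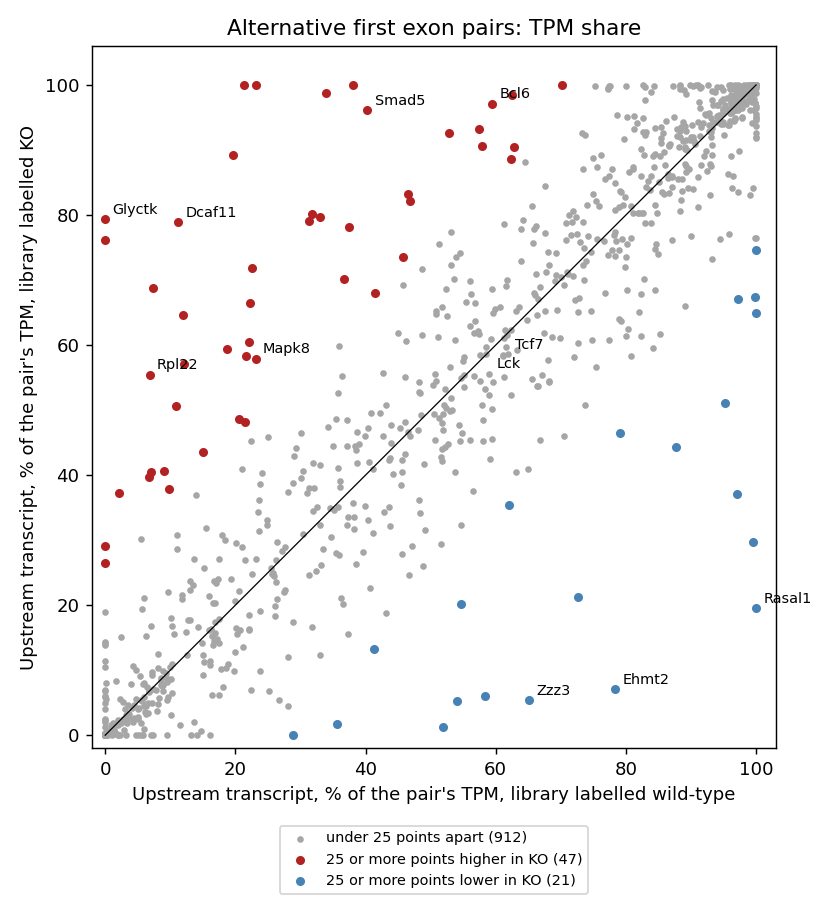
Upstream transcript's percent of the pair's TPM in the library labelled wild-type (horizontal axis) and in the library labelled KO (vertical axis), 1 point per pair, with the line of equal shares. Of 980 pairs, 912 lie within 25 points of that line, 47 lie above it by more and 21 below it.

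The structure of the pair went with small differences in how often 25 points were passed. Overlapping first exons passed it in 9.80% of pairs, those with the same start in 7.94% and separate ones in 6.17%. Pairs of genes with only 2 annotated transcripts passed it in 5.46% and those with more in 8.57%. Genes above 100 TPM in both libraries passed it in 4.22% and the rest in 7.81%. Pairs with the same start codon passed it in 9.20% and those with different start codons in 4.18%. Among separate pairs the share was 7.80% with starts under 1 kb apart, 4.09% at 1 to 10 kb and 5.56% beyond 10 kb.

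**Figure D2:**
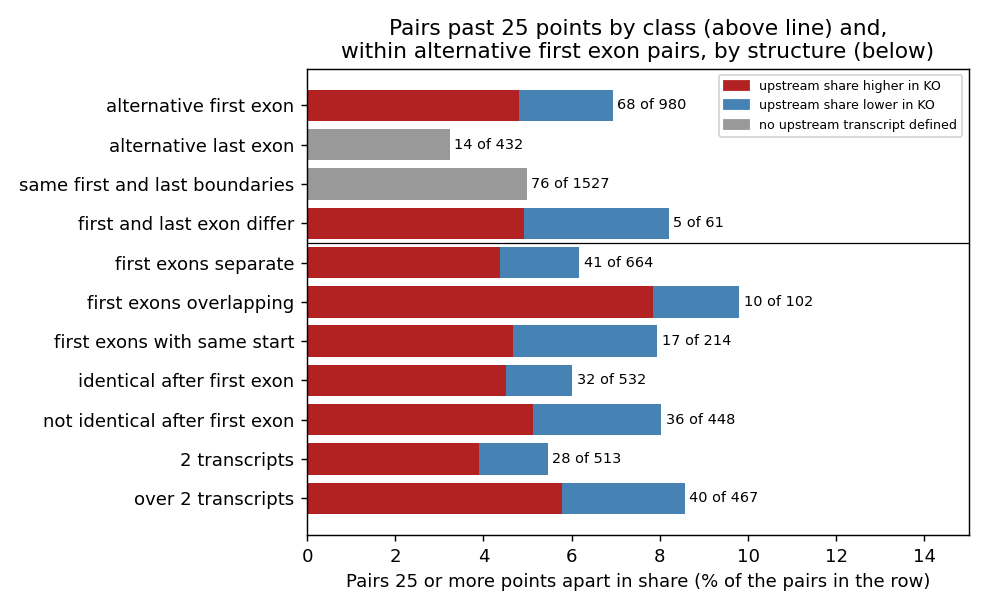
Percent of pairs whose TPM share differed by 25 points or more, by class of pair above the line and, within the alternative first exon pairs, by structure below it, with counts beside the bars. Red is a higher and blue a lower upstream share in the library labelled KO, and grey marks classes in which no transcript is upstream. All bars lie between 3.24% and 9.80%.

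The 12 largest differences belonged to genes of many functions. Rasal1, a Ras GTPase-activating protein, had its upstream transcript at 28.2 and 4.15 TPM and its downstream one at 0 and 17.1, a share of 100% and 19.5%. Ehmt2, the G9a histone H3 lysine 9 methyltransferase, had 72.0 and 4.89 TPM for the upstream and 19.9 and 64.3 for the downstream transcript, a share of 78.3% and 7.06%. Tiam1, an exchange factor for Rac, had shares of 99.5% and 29.7%. These 3 were lower in the library labelled KO.

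The other 9 were higher there. Trerf1, a zinc finger transcriptional regulator, had upstream shares of 23.1% and 100%, Cep57l1 of 21.3% and 100%, Vps13d, a lipid transfer protein, of 38.1% and 100%, and Clcc1 of 33.98% and 98.8%. Slc25a44, a mitochondrial carrier of branched-chain amino acids, had 19.6% and 89.3%, Dcaf11, a substrate receptor of cullin ubiquitin ligases, 11.3% and 78.9%, and Ifi47, an interferon-induced GTPase, 7.31% and 68.7%. Glyctk, glycerate kinase, and Odf2l had an upstream transcript listed at 0 under the wild-type label, and shares of 79.3% and 76.1% in the other library. Reads of Glyctk are uncertain, since 47.5% of its 50-base words also occur in another gene, and a first exon of the Ifi47 pair overlaps the gene Olfr56.

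Several of these shares were not matched by reads at the first exon itself. In Rasal1 the depth on the upstream first exon, summed over all transcripts and scaled to TPM-equivalents, was 0 in the library labelled wild-type, where the transcript was listed at 28.2 TPM, and 2.46 in the library labelled KO. In Trerf1 the upstream first exon had 1.14 and 0.67 TPM-equivalents, while its transcript was listed at 4.61 and 14.0 TPM. In Tiam1 both first exons were near 0, at most 0.34. In Ehmt2 the depth of the upstream first exon was 9.51 and 7.95, near-equal beside transcript levels of 72.0 and 4.89 TPM. Its downstream first exon, which overlaps an exon of the upstream transcript, had 10.5 and 20.7. The first exon share of Ehmt2 was therefore 47.4% and 27.7%, a smaller difference than by TPM but in the same direction. A transcript's TPM is an estimate in which reads on shared exons are divided between transcripts, and the first exon alone is a small part of it.

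For that reason first exons were also compared by their own depth. In 392 pairs neither first exon overlapped any exon of the other transcript, and both first exons together held 10 or more estimated read pairs in each library, at medians of 50.6 and 48.7. In these 392 the TPM share differed by 25 points or more in 19 pairs (4.85%), 15 higher and 4 lower in the library labelled KO. The share of first exon depth differed that much in 7 pairs (1.79%), 6 higher and 1 lower. Only Bag5 passed 25 points by both measures in the same direction. Of the 19 pairs, 16 differed by under 10 points in first exon depth and 11 by under 5, and 13 had the same sign. Their median absolute difference was 40.7 points by TPM and 2.50 points by first exon depth, beside 2.89 and 2.74 points over all 392. The summed depth also counts further transcripts of the gene where these overlap the first exons. In the 264 of the 392 pairs without such overlap, 8 differed by 25 points or more in TPM share. Of those 8, 7 differed by under 10 points in first exon depth. With the depth that the authors' tool assigned to each transcript's own first exon, in place of the sum over transcripts, 7 of the 392 were higher and 1 lower, and 2 of the 19 passed 25 points in the same direction. Over all 972 pairs with such depth, which include overlapping first exons whose reads are themselves divided between the transcripts, 37 were higher and 20 lower, and 19 of the 66 pairs past 25 points by TPM passed it here in the same direction.

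**Figure D3:**
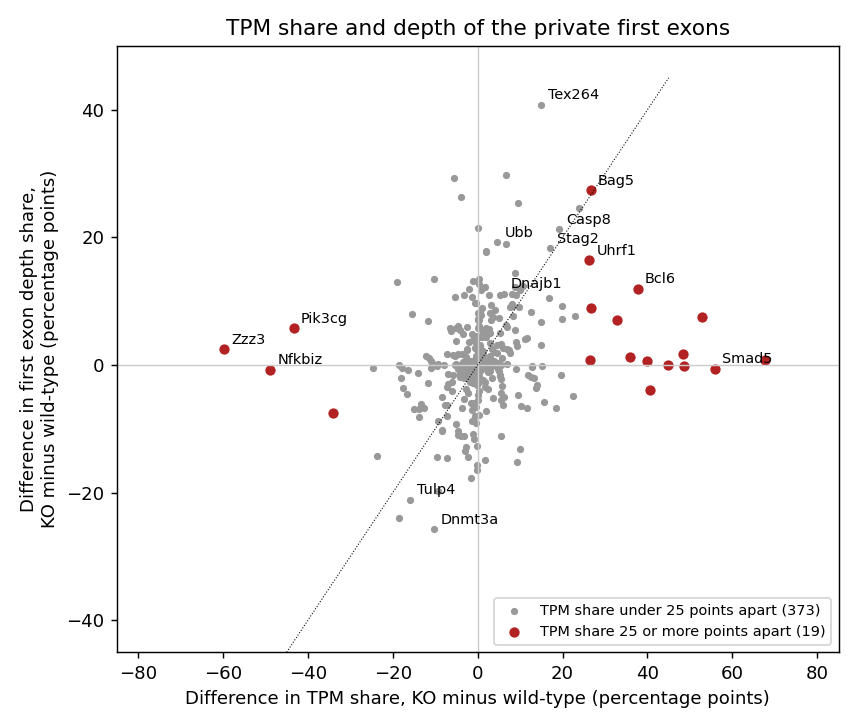
Difference in the upstream share between the libraries (KO minus wild-type, percentage points), by TPM on the horizontal axis and by depth of the private first exons on the vertical axis, for 392 pairs, with a dotted line of equal differences. Private first exons overlap no exon of the other transcript of the pair, but may overlap further transcripts of the gene. Of the 19 red points, which differ by 25 points or more in TPM share, 16 lie within 10 points of 0 on the vertical axis.

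Smad5, a signal transducer of bone morphogenetic proteins, shows the pattern. Its upstream transcript was listed at 16.9 and 47.1 TPM and its downstream one at 25.02 and 1.91, a share of 40.3% and 96.1%. The upstream first exon had a depth of 25.4 and 15.6 TPM-equivalents and the downstream one 2.23 and 1.47, a share of 91.9% (95% interval 77.2 to 98.45) and 91.4% (73.9 to 98.6). The intervals, exact binomial from estimated read pairs, cover counting error only. By first exon depth the upstream first exon was the major one in both libraries. Another transcript of the gene overlaps a first exon of Smad5, and its depth is in these sums. The same holds below for Rpl22, Hp1bp3, Nfkbiz, Pik3cg and Dcaf11, but not for Ppp1r16b, Arl2bp, Zzz3 or Gne. It also holds further below for Casp8, Uhrf1, Bag5, Tex264, Ikzf1, Foxp1 and Tcf12, so their summed first exon depths are not of the pair alone. It does not hold for Stag2, Bcl6, Dnmt3a, Dnajb1, Ubb or C1d.

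Rpl22, a ribosomal protein needed for the development of alpha-beta T cells, had the same contrast. Its upstream transcript was at 17.6 and 136 TPM and its downstream one at 239.5 and 109, a share of 6.84% and 55.5%. The upstream first exon held 0.353 and 0.303 TPM-equivalents and the downstream one 42.9 and 47.3, so the share of first exon depth was 0.815% and 0.638%. Read against the printed windows, nearly all depth on the pair's first exons lay behind the downstream Rpl22 window in both libraries.

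Further pairs were alike in this. Ppp1r16b, a regulatory subunit of protein phosphatase 1, had TPM shares of 10.8% and 50.7% and first exon shares of 4.03% and 4.59%. Hp1bp3, a heterochromatin protein, had 31.7% and 80.1% by TPM and 87.4% and 89.2% by first exon depth. Arl2bp, a binding partner of the small GTPase Arl2, had 62.5% and 98.5%, and 91.4% and 92.7%. Zzz3, a subunit of a histone acetyltransferase complex, had 65.2% and 5.41% by TPM, and 18.9% and 21.4% by first exon depth.

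Nfkbiz, the nuclear inhibitor IκBζ, had 54.1% and 5.30% by TPM, and 9.68% and 8.93% by depth. Pik3cg, the gamma catalytic subunit of phosphoinositide 3-kinase, had 87.6% and 44.3% by TPM, and 38.9% and 44.7% by depth, where the directions are opposite. Dcaf11 had 24.6% and 25.4% by first exon depth, beside its 11.3% and 78.9% by TPM. In Gne, the enzyme that starts sialic acid synthesis, the upstream first exon was at 0 depth in both libraries while its transcript was listed at 3.50 and 11.8 TPM.

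On the exons that both transcripts have, the assigned depth followed the TPM. Of the 68 pairs past 25 points, 67 had such common exons, and in 66 the depth assigned to the 2 transcripts on them differed by 25 points or more in the same direction. In Smad5 the upstream transcript's share of the depth on common exons was 39.6% and 96.1%, and in Rpl22 6.77% and 55.5%, close to the TPM shares. TPM is the mean coverage over a transcript, mostly of common exons, so this follows from choosing pairs by TPM and is no separate evidence. In 251 of the 392 pairs the transcripts were identical after the first exon, and 12 of these passed 25 points by TPM, of which 10 differed by under 10 points in first exon depth.

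**Figure D4:**
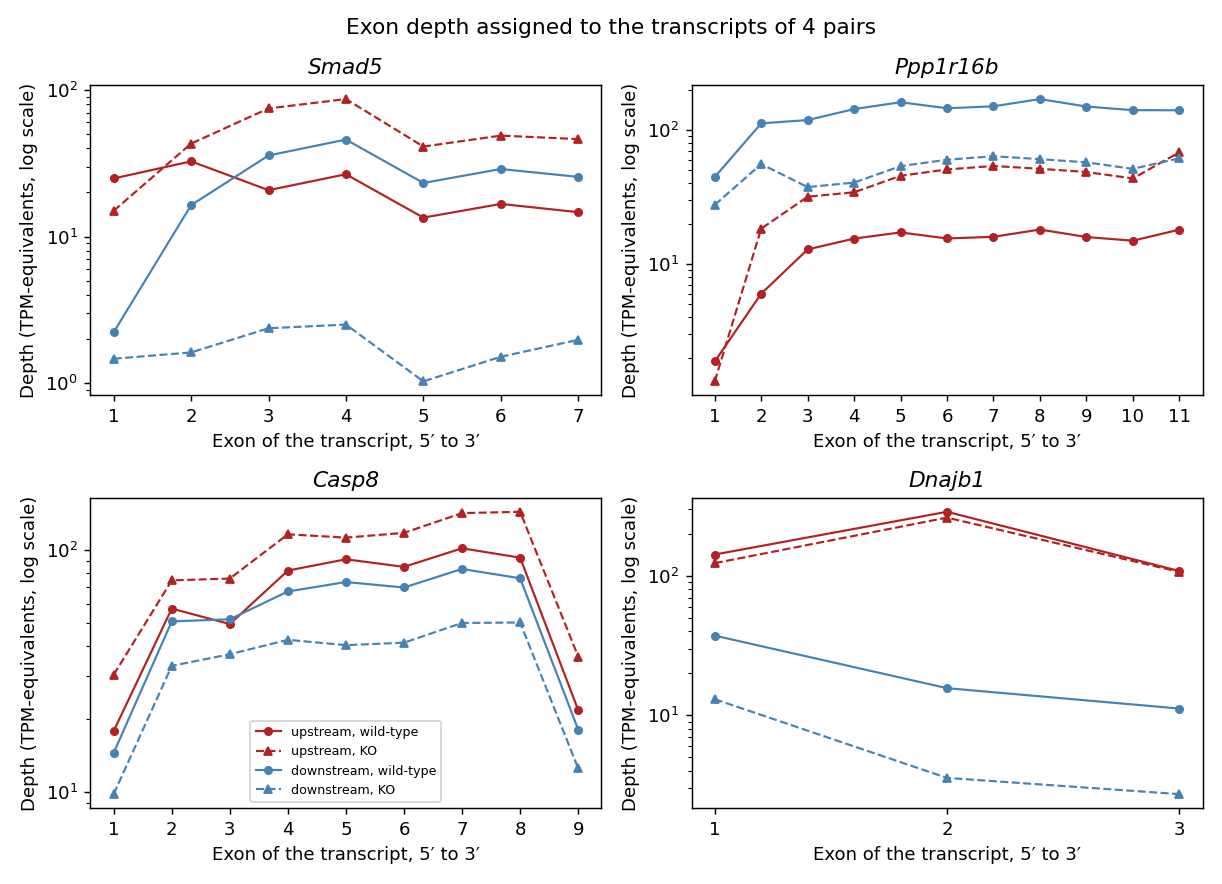
Depth (TPM-equivalents, log scale) assigned to each exon of the upstream (red) and downstream (blue) transcript, 5′ to 3′, in the library labelled wild-type (solid lines, circles) and KO (dashed lines, triangles), for Smad5, Ppp1r16b, Casp8 and Dnajb1. In Smad5 and Ppp1r16b the upstream transcript is higher in the library labelled KO from exon 2 on and lower there at exon 1, while in Casp8 and Dnajb1 the downstream transcript is lower in that library at every exon, the first included.

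A smaller set of genes differed by both measures. In 14 of the 392 pairs the TPM share and the first exon share each differed by 10 points or more in the same direction, and in 2 they did so in opposite directions. By TPM alone 75 of the 392 differed by 10 points or more, and by first exon depth alone 63. The 2 measures are not independent, since first exon reads are part of the TPM. Among the 14 only Tex264 had counting intervals that did not overlap. Casp8, the initiator caspase of death receptor signalling, had its upstream first exon (chr1:58795374-58795738, plus strand, mm10) at 17.8 and 30.5 TPM-equivalents and its downstream one (chr1:58802502-58802693) at 16.6 and 11.2. Its share was 51.9% (40.2 to 63.8) and 73.1% (63.6 to 81.5) by first exon depth, and 53.2% and 72.3% by TPM. The intervals overlap narrowly.

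Stag2, a cohesin subunit, had first exon shares of 36.6% (27.4 to 46.9) and 54.9% (44.7 to 65.1) and TPM shares of 44.9% and 61.9%. Its upstream first exon (chrX:42149412-42149685, plus strand) had 21.6 and 27.9 TPM-equivalents and its downstream one 37.5 and 23.0. Uhrf1, which recruits the maintenance DNA methyltransferase at replication, was at 62.4 and 93.7 TPM as a gene, with its upstream first exon at 13.2 and 30.5 and its downstream one at 6.16 and 5.53 TPM-equivalents. Its upstream share was 62.3% and 88.6% by TPM and 68.2% and 84.7% by depth, with 18.7% of its words shared with another gene. In all 3 the counting intervals of the first exon shares overlap.

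Bcl6, the repressor of follicular helper T cell and germinal centre programmes, had shares of 59.4% and 97.1% by TPM, and 44.2% and 56.1% by first exon depth; the difference was smaller at the first exons. Bag5, a co-chaperone of Hsp70, had 41.5% and 68.1% by TPM and 21.7% and 49.1% by depth, on 31.0 and 37.6 read pairs. Dnmt3a, a de novo DNA methyltransferase, was lower in the library labelled KO, at 68.0% and 57.7% by TPM and 46.2% and 20.5% by depth, on 21.3 and 23.4 read pairs. Gucd1, Tulp4 and Rrp8 were the other 3 lower ones, and Nup35, Mylpf, Arl4a, Myo1c and Tex264 the other higher ones. Reads of Tulp4 and Nup35 are uncertain, since 30.2% and 83.0% of their words are shared with other genes.

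Counting intervals of the first exon share did not overlap in 4 of the 392 pairs (1.02%), which were Dnajb1, Ubb, Tex264 and C1d. Dnajb1 encodes a heat-inducible Hsp40 co-chaperone. Its upstream first exon had 142 and 123 TPM-equivalents and its downstream one 37.3 and 13.1, so the upstream share was 79.2% (74.7 to 83.3) and 90.4% (86.8 to 93.4). By TPM the downstream transcript was at 14.0 and 3.66, and the upstream one at 147 and 139. The downstream first exon of Dnajb1 lies within the first intron of the upstream transcript, and its depth was above the downstream transcript's TPM in both libraries. Whether unspliced RNA of the upstream transcript adds to that depth was not tested. The downstream first exons of Ubb, Tex264 and C1d lie in the same position.

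Ubb, a stress-inducible polyubiquitin gene, differed on the same, downstream, side. Its upstream first exon was at 85.9 and 87.8 TPM-equivalents, near-equal, and its downstream one at 66.9 and 28.6, a share of 56.2% (49.7 to 62.8) and 75.4% (68.8 to 81.5). The TPM share was 72.5% and 77.1%, a difference of 4.62 points that the rule of 25 points did not reach. Of the words of Ubb 55.4% are shared with another gene, and a first exon of its pair overlaps the locus named Ubb-ps, so its reads are uncertain. The windows of both genes are printed above.

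In Tex264, a receptor for autophagy of the endoplasmic reticulum, the first exon share was 21.4% (7.12 to 41.3) and 62.2% (47.5 to 74.1), and the TPM share 23.7% and 38.6%. Another transcript of Tex264 overlaps a first exon of the pair, and its depth is in the first exon share. In C1d, a cofactor of the nuclear RNA exosome, the directions were opposite, at 80.6% and 94.1% by first exon depth and 96.4% and 86.0% by TPM. Counting intervals of the first exon shares of Dnajb1, Ubb, C1d and Tex264 thus did not overlap, and the TPM rule of 25 points named none of them. These genes were picked from 392 pairs by that rule of intervals and no test was made. A chance difference is therefore not excluded for any of them.

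The level of first exons as such was lower in the library labelled KO. Over the 392 pairs, the depth of both first exons together was at a median of 43.0% and 34.8% of the gene's TPM, and it was lower in the library labelled KO in 314 and higher in 78. The median log2 ratio was -0.22. Depth on single first exons should be read beside this shift, which was not tested as a cause of any difference. Shares within a pair are ratios of 2 first exons of the same library.

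Counts for genes listed for alternative promoters in the T lineage rest on few pairs and are read beside all 980. Of the 30 listed genes 21 gave a pair and 10 were alternative first exon pairs. Of these 10, 1 (10%), Mapk8, passed 25 points, against 6.94% of all 980. Differences of 10 points or more were found in 2, Mapk8 and Ikzf1, against 25.6% of all 980. The median difference was -1.70 points, against 0.09 over all 980. Lck had its upstream (distal) transcript at 1112 and 1082 TPM and its downstream (proximal) one at 774 and 863 TPM, a share of 59.0% and 55.6%. The upstream first exon had 315 and 293 TPM-equivalents. The downstream first exon overlaps an exon of the upstream transcript, so its depth does not separate the promoters.

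Tcf7, the transcription factor TCF-1, had its upstream transcript at 969 and 747 TPM and its downstream one at 598 and 529, a share of 61.9% and 58.6%. By first exon depth the upstream share was 96.0% and 95.6%, with 1081 and 793 TPM-equivalents upstream and 44.97 and 36.4 downstream. Ikzf1, the zinc finger factor Ikaros, had 198 and 127 TPM upstream and 204 and 275 downstream, a share of 49.2% and 31.6%. Its first exons, summed over the gene's transcripts, gave 30.2% and 26.5%, a smaller difference of -3.66 points. The downstream first exon had 302 and 224 TPM-equivalents and the upstream one 131 and 80.9. Those sums include another transcript. The depth assigned to the pair's own first exons was 154 and 129 TPM-equivalents at the CpG-poor downstream start. At the CpG-rich upstream start it was 30.7 and 10.6. By that depth the upstream share differed by -9.05 points, also less than by TPM.

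Satb1, a chromatin organiser of thymocytes, had shares of 79.9% and 82.8% by TPM and 70.8% and 71.4% by first exon depth. Tcf12, which encodes the E protein HEB, had 83.7% and 83.8% by TPM and 90.6% and 92.5% by depth. Foxp1, a forkhead repressor that keeps T cells quiescent, had 68.6% and 61.3% by TPM and 38.3% and 40.04% by depth. The phosphatases Ptpn6 (SHP-1) and Ptpn22 used the downstream transcript, with upstream shares of 2.15% and 2.13%, and 3.28% and 3.17%. Bcl2l1, whose product Bcl-xL keeps DP thymocytes alive, had 20.2% and 16.4% between first exons with the same start.

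Mapk8, the kinase JNK1, had its transcripts at 3.63 and 9.87 TPM upstream and 12.05 and 7.17 TPM downstream, a share of 23.2% and 57.9%. The depth on its upstream first exon, summed over the gene's 4 transcripts, was 22.9 and 23.1 TPM-equivalents, near-equal. That sum includes a further transcript. The depth assigned to the pair's own first exons was 5.44 and 11.8 upstream and 7.12 and 4.21 downstream. That is a share of 43.3% and 73.7%, in the direction of the TPM share. The downstream first exon of Mapk8 overlaps an exon of the upstream transcript. In 6 of the 10 genes the first exons could be compared by depth, and in none of the 6 did the share differ by 10 points. It did so in 63 of all 392 pairs compared in this way, and 6 genes are too few to set apart from that.

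**Figure D5:**
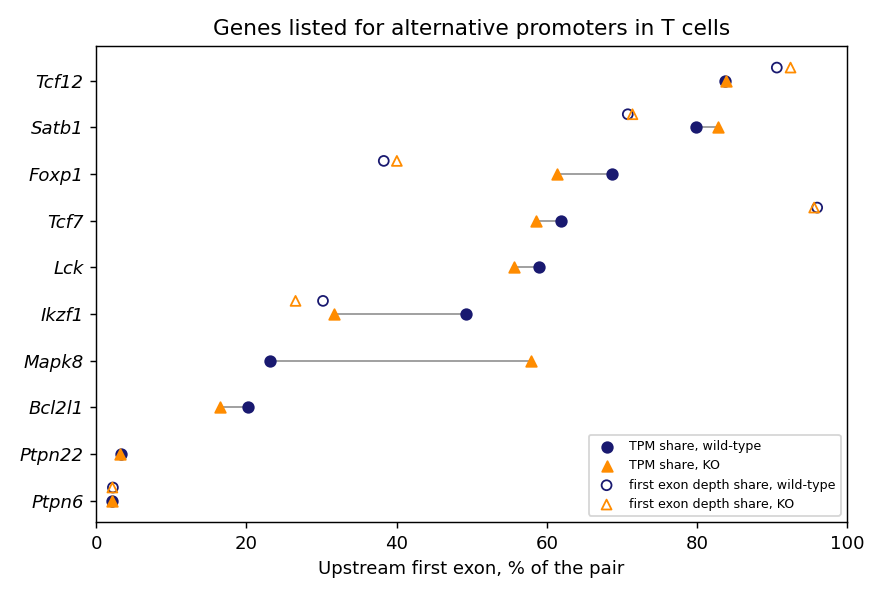
Upstream share of the pair, in percent, for the 10 genes listed for alternative promoters in the T lineage, by TPM (filled) and, where the first exons are private, by first exon depth (open), in the library labelled wild-type (circles) and KO (triangles). Mapk8 differs by the most, at 23.2% and 57.9%, Ikzf1 next, and the open symbols of each gene lie close together.

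The most abundant pairs differed by little. Tmsb10, an actin-sequestering thymosin, had upstream shares of 6.09% and 3.52%, and Arhgdib, a GDP dissociation inhibitor of small GTPases in blood cells, 8.74% and 7.68%. Coro1a, the actin regulator coronin 1A, had 98.4% and 98.7%, Rps15 98.4% and 98.7%, and Rpl19 2.40% and 1.91%. Reads of Tmsb10, Rps15 and Rpl19 are uncertain, with 48.0%, 30.3% and 73.9% of their words shared with other genes. These 5 pairs differed by under 3 points.

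By function, 0 to 3 members of each list passed 25 points, to be read beside 6.94% of all 980 pairs. The lists are not complete, so the counts hold for the listed genes and not for whole classes. For example, Smad5 and Trerf1 passed 25 points but are not among the listed transcription factors. Ehmt2 and Uhrf1 likewise passed it but are not among the listed chromatin regulators. Of 27 listed transcription factors it was 1 (3.70%), Bcl6. Of 24 listed chromatin regulators it was 3 (12.5%). Chd9, a chromodomain helicase, had 2.13% and 37.2%, Setd5 52.7% and 92.6%, and Hdac6, the tubulin deacetylase, 97.1% and 37.1%. Of 24 genes of T cell signalling and surface proteins it was Mapk8 alone (4.17%). Of 15 cell cycle and DNA repair genes it was 3 (20%), with Ect2, a guanine nucleotide exchange factor of cytokinesis, at 46.6% and 83.2%, the polymerase Poli at 41.3% and 13.2%, and the topoisomerase Top3b at 62.1% and 35.3%.

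Of 23 ubiquitin and proteolysis genes it was 2 (8.70%), among them Pias3, a SUMO ligase, at 57.5% and 93.2%. Of 23 genes of metabolism and mitochondria it was 1 (4.35%), Mfn2, a mitochondrial fusion GTPase, at 95.3% and 51.1%. Of 12 RNA processing genes none passed 25 points and none passed 10 points, beside 6.94% and 25.6% of all 980 pairs. The median differences of the lists lay between -2.83 points (chromatin regulators) and 1.17 points (RNA processing), against 0.09 over all pairs. No test of a list was made.

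The most abundant members of these lists had these shares. Brd2, a reader of acetylated histones, had 37.2% and 32.4% upstream, and Hmgb1, an abundant chromatin protein, 56.7% and 61.9%, with 36.5% of its words shared with other genes. Ddx39b, an RNA helicase of mRNA export, had 99.99% and 99.98%, and Srsf5, an SR splicing factor, 69.2% and 74.1%. Ccnd3, the D-type cyclin of thymocyte proliferation, had 7.37% and 7.10% with starts 88416 bases apart. Bub3, a spindle checkpoint protein, had 99.1% and 97.8%, and Cox4i1, a subunit of cytochrome c oxidase, 97.7% and 97.6%. In Gapdh, a glycolytic enzyme with many near-identical copies, the upstream transcript was listed at 0 in both.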

How the data were processed

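RNA was measured in 2 libraries of sorted CD69-positive DP thymocytes, 1 per genotype. Per the labels' protocols, Trizol RNA (1 ug) went into a TruSeq kit. HISAT2 was used for alignment and mm10 (GRCm38) as the genome, per the submitters' processing notes. Per the file headers, the authors ran StringTie 1.3.3b on RefSeq transcripts without assembling new ones. The deposited tables give TPM per transcript and coverage, the mean read depth per base, per transcript and exon. The exon coverage deposited by the authors is what was assigned to that transcript. No source used here gives read filters or strand use. The other annotation fields, such as exon coordinates, were used as deposited.

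Pairs, shares and structures were computed from these in Python 3.11.15 with pandas 2.3.3, numpy 2.4.6 and scipy 1.17.1, and drawn with matplotlib 3.10.9. Groups came from the labels. Depth was turned into TPM-equivalents by the ratio of TPM to coverage in its library. Covered bases of transcripts with few reads lay within 2 bases of multiples of 202 in 25.9% and 26.5% of cases, against 2.48% by spacing, so read pairs were estimated as covered bases divided by 202. Intervals are 95% Clopper-Pearson and cover counting error only, since PCR copies are not independent molecules, and they leave out the error of dividing reads between transcripts. Transcripts listed at 0 TPM can be failed estimates. Symbols were found for 979 of 980 pairs in the RefSeq table of GRCm38.p6. Start codons and shared 50-base words came from GENCODE M21.

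Named genes were the 12 largest differences with 50 or more read pairs, the 6 most abundant pairs, T lineage list members, the 2 most abundant members of each other list, and 2 pairs on each side of the level; a few of these are not reported here. Pairs compared by first exon depth, list members past 25 points, and both heat shock element parts were chosen after their values were seen. The members and lists were chosen with earlier results of these data known. The share rule was tested on simulated data. Alternatives were the threshold, the level, the measure and the kind of pair.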

Additional observations from a re-analysis of the deposited data

How the results depend on the processing

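With 1 library per genotype, no replicate was left out, and what differs between mice or preparations cannot be told apart from genotype. No paired analysis was possible because each genotype had 1 library. Counting intervals of the first exon shares overlapped in all but 4 of 392 pairs. These pairs had medians of 50.6 and 48.7 estimated read pairs on the first exons and a median absolute difference of 2.74 points. Whether low depth or small differences gave this overlap was not tested.

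The number of pairs with a higher upstream share in the library labelled KO, 47 at 25 points, was 144 at 10 points and 20 at 40 points, and the number lower, 21, was 107 and 11. At gene levels of 20 and 1 TPM (792 and 1294 pairs) the counts were 30 and 104 higher, and 12 and 60 lower. They were 29 and 12 for separate first exons and 24 and 8 for pairs identical after the first exon, which are fewer pairs. Among private first exons, added after seeing the data, they were 15 and 4 by TPM and 6 and 1 by first exon depth. Pairs whose more abundant transcript differed, 84, were 150 at 1 TPM, 49 for separate, 37 for identical pairs, and 25 and 7 for private first exons by TPM and by depth. The median share, 59.0% and 61.7%, was 52.9% and 57.0% of all the gene's transcripts and 48.6% and 51.2% by assigned depth of each transcript's own first exon (972 pairs), which counted 37 higher, 20 lower and 91 with another more abundant transcript. By that depth 5 of 36 named pairs changed sign (Lck, Bcl2l1, Brd2, Ptpn22 and Cox4i1), all with a TPM difference of at most 4.80 points; with the other measures none of 37 did. Of the named pairs, 30 of 36 moved beyond their interval by that depth, 10 of 37 by share of the gene and 9 of 37 with 1 TPM added, and the cause was not tested.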
